A study of Mus musculus with 8 samples.

Results

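The dual-specificity MAP kinase phosphatases are a family of enzymes that switch off MAP kinases. The 9 family genes examined here were Dusp1, Dusp2, Dusp4, Dusp5, Dusp6, Dusp7, Dusp8, Dusp10 and Dusp16. They were chosen by gene symbol, with earlier results of these data known. The symbols were matched to Ensembl gene IDs through the GENCODE mouse annotation, and all 9 were found among the 55414 gene IDs of the count table. RNA was sequenced from Paneth cells, the antimicrobial secretory cells of the crypt base, sorted from the small intestine of wild-type mice. The PBS group (4 libraries) came from mice injected with saline and the TNF group (4 libraries) from mice injected with the cytokine TNF, each 3 hours before the tissue was taken. The study's methods describe its sorted Paneth cells as coming from C57BL/6J mice, whereas the labels name the genotype only as WT. The sources used here do not give the dose, route or age, and the study states that its datasets together include both sexes without saying which animals these were. By its design text, the series addressed how TNF alters gene expression in Paneth cells.

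MAP kinases become active when a kinase upstream of them adds phosphate to a threonine and a tyrosine of the activation loop, and these phosphatases take both phosphates off again. Many of their genes are themselves transcribed in response to MAP kinase activity, so that the family is a textbook case of negative feedback. Dusp1, Dusp2, Dusp4 and Dusp5 encode nuclear, inducible enzymes. Dusp6 and Dusp7 encode cytosolic enzymes that act mainly on ERK, the kinase of growth factor signalling. Dusp8, Dusp10 and Dusp16 encode enzymes that prefer JNK and p38, the kinases of stress and cytokine signalling.

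What the family shares at the sequence level is the active site, a histidine and the catalytic cysteine followed by 5 residues and an arginine. The coding bases of this signature were read from the GENCODE canonical transcripts on GRCm39 for a few members, with the catalytic cysteine codon and the arginine codon in capitals.
Dusp1: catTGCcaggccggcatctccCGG
Dusp4: cacTGCcaggccggcatctccCGA
Dusp10: cacTGCcaggccggcgtgtccCGA
Dusp6: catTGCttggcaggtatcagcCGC
Dusp8: cacTGTctggctggcatctctCGC
Dusp5: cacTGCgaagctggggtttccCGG
These stretches lie in coding exon 4 of 4 of Dusp1 (chr17:26725566-26725589, minus strand), coding exon 4 of 4 of Dusp4 (chr8:35285587-35285610, plus strand) and coding exon 3 of 3 of Dusp10 (chr1:183806490-183806513, plus strand). They lie in coding exon 3 of 3 of Dusp6 (chr10:99101889-99101912, plus strand), coding exon 5 of 6 of Dusp8 (chr7:141637070-141637093, minus strand) and coding exon 4 of 4 of Dusp5 (chr19:53529382-53529405, plus strand). The pattern occurred 1 time in the coding sequence of each of the 9 genes, with the cysteine at codon 258 in Dusp1, 293 in Dusp6 and 409 in Dusp10. Over the 24 bases, Dusp1 and Dusp4 shared 22, Dusp4 and Dusp10 shared 22, and Dusp5 and Dusp6 shared 13. Dusp8 was the member whose cysteine codon was TGT, against TGC in the other 8.

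The promoters were then searched for binding motifs of factors that act downstream of MAP kinases and TNF. Each window from 250 bases before to 50 bases after the canonical start was searched on both strands for the cyclic AMP response element (CRE, TGACGTCA), the AP-1 site (TGANTCA), the NF-kB site and the serum response factor site called the CArG box. A CRE was found in 2 of the 9 genes and CArG boxes in 1, shown here with the matched bases in capitals, read along the gene's strand.
Dusp1 CRE: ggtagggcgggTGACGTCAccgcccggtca
Dusp8 CRE, upstream: gcccgctccgcTGACGTCAcctgcccccga
Dusp8 CRE, downstream: ttggctgcaggTGACGTCAggggctttttc
Dusp5 CArG box, upstream: ggggaaatacCCATATTTGGccttatatgg
Dusp5 CArG box, downstream: ccatatttggCCTTATATGGgcactcacgt
The Dusp1 window is chr17:26727571-26727600 (minus strand) and its CRE begins 96 bases before the start of transcription. The Dusp8 windows are chr7:141649110-141649139 and chr7:141649066-141649095 (minus strand), with the CREs 76 and 32 bases before the start. The Dusp5 windows, chr19:53517484-53517513 and chr19:53517494-53517523 (plus strand), overlap, and their CArG boxes begin 38 and 28 bases before the start. Among 21770 protein-coding promoters of the same length, 2.44% held a CRE and 1.54% a CArG box. The AP-1 letters (7.14% of promoters) and the NF-kB site (8.97%) were found in 0 of the 9 windows, which says only that these letters are not in this stretch.

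The libraries held 23824717 to 32576077 counts, and principal component 1 (68.2% of variance) separated the groups. TNF replicate 4 stood apart on component 2 (score 63.9, against -29.1 to 4.22 in the other 7). Its scaling factor by the trimmed mean of M-values (TMM) was 0.448, against 0.995 to 1.36 in the others, and 8 Paneth cell markers summed to 1231360 normalized CPM (counts relative to the library size after TMM) in it, against 315025 to 465929 in the other 7 libraries. The first value can exceed the CPM scale because that library's adjusted size is smaller than its count total. Of 11 leukocyte markers, 7 (among them Cd3e, Itgax and Adgre1) had 0 counts in every library, and the list summed to 7.06 to 13.0 normalized CPM in PBS and 10.7 to 68.7 in TNF, or at most 13.8 without TNF replicate 4. Lyz2 made up 6.25 to 11.7 of this sum in PBS and 64.4 of it in TNF replicate 4, while Ptprc was at most 0.394 in PBS and 0.773 in TNF. Lyz1, a Paneth cell marker, was at 119011 to 166024 in PBS and 454456 in TNF replicate 4. Whether reads of Lyz1 were counted to Lyz2 is not known and was not tested. Stromal markers summed to 0.260 to 0.453 in PBS and 1.23 to 1.70 in TNF, of which Vim made up 0.112 to 0.407 and 0.859 to 1.35, and Col1a2 and Col3a1 had 0 counts in every library. The 5 enteroendocrine markers summed to 10.3 to 13.2 and 30.3 to 61.0 (at most 39.9 without TNF replicate 4). Of 6 stem cell markers, 5 were called lower (median log2 fold change -1.37), against 19.6% of all tested genes. The list summed to 1459 to 2360.0 in PBS and 1314 to 1858 in TNF. Olfm4, the marker not called, made up 1235 to 2096 of these sums in PBS and 1193 to 1717 in TNF. The part of these cells in the results was not tested. The study's methods describe its sorted Paneth cells as having very few contaminating cells, without a value for this series alone. In bulk RNA, fewer cells of a type and less RNA per cell cannot be told apart.

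Of the 9 phosphatase genes, 8 had enough counts to be tested. After TNF, 7 of them rose (Dusp1, Dusp4, Dusp5, Dusp7, Dusp8, Dusp10 and Dusp16) and 1 fell (Dusp6), by edgeR's quasi-likelihood test at an adjusted p under 0.05. Over all 13368 genes tested, 43.0% were called, 23.3% higher and 19.6% lower. In all 8 genes the ranges of the groups were separate, as they were in 42.1% of all tested genes. Their median log2 fold change was 1.32, against 0.03 over all tested genes. The series' design text calls the libraries biological replicates, and p-values measure the spread among these 8 libraries.

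**Figure D1:**
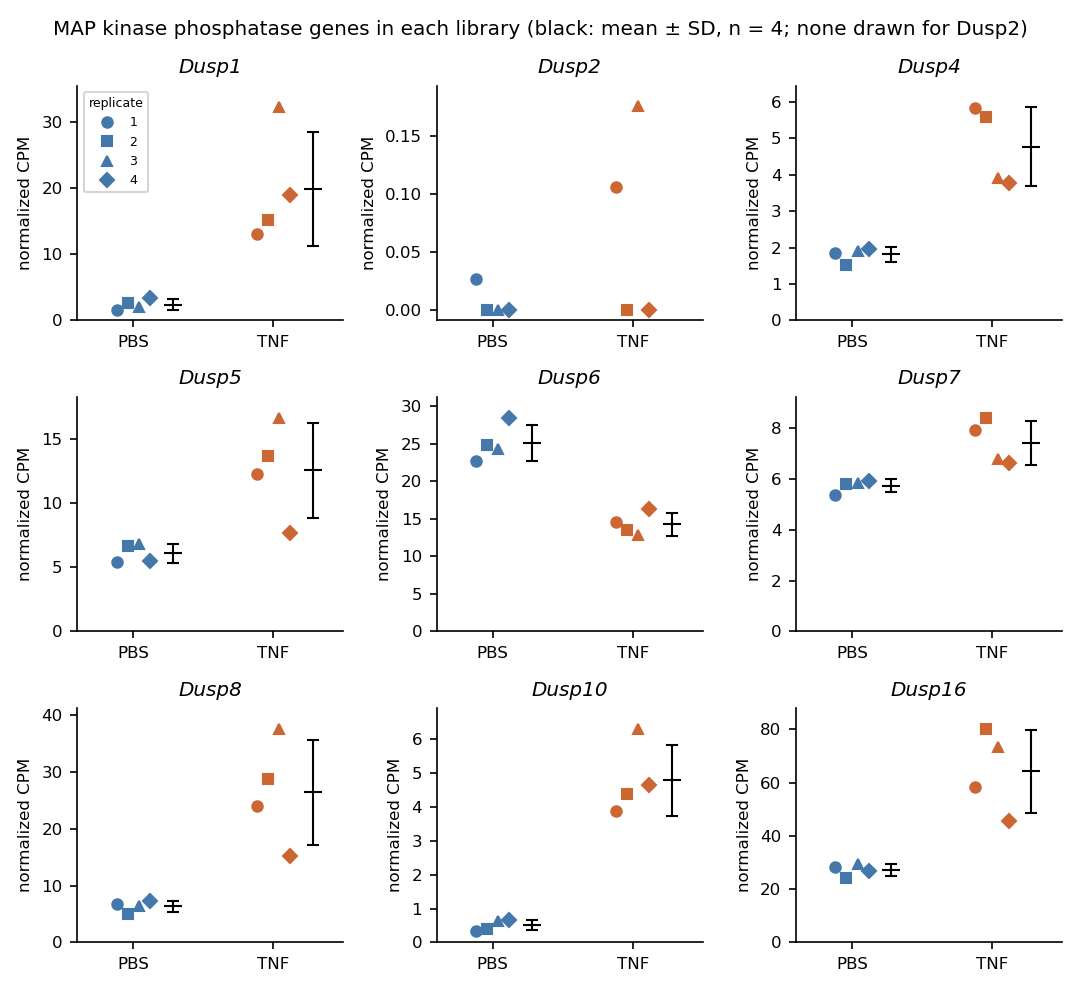
Normalized CPM (TMM-scaled counts, linear axes that differ between panels) of the 9 phosphatase genes in 4 PBS (blue) and 4 TNF (orange) libraries, with marker shape for the replicate and black bars for mean ± SD. Dusp6 is the panel where all TNF points lie below the PBS points, at most 16.3 against at least 22.7, and Dusp2 has points at 0 in 5 of 8 libraries.

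Among the nuclear enzymes, Dusp1 (ENSMUSG00000024190, chr17:26724564-26781102, minus strand) had the strongest rise. Dusp1 acts on p38, JNK and ERK and is an immediate early gene. It stood at 1.58, 2.60, 1.97 and 3.46 normalized CPM in PBS replicates 1 to 4 and at 13.0, 15.3, 32.3 and 19.0 in TNF replicates 1 to 4. Every TNF library was several fold above every PBS library, and TNF replicate 3 was the highest of its group. The mean went from 2.41 ± 0.822 to 19.9 ± 8.61 (SD, n = 4), which is 8.20-fold (log2 fold change 3.04, SE 0.33, adjusted p = 3.73e-05). Of all tested genes, 1.504% had a log2 fold change at or above that of Dusp1. An antisense overlap of 38 bases with Ergic1, which held 1750 to 8008 counts per library, leaves the Dusp1 counts (50 to 919) uncertain, since use of strand in counting is not stated.

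Dusp4 (ENSMUSG00000031530, chr8:35274442-35287048, plus strand) encodes a nuclear phosphatase of ERK and JNK. Its level was 1.85, 1.53, 1.89 and 1.97 normalized CPM in PBS and 5.82, 5.57, 3.90 and 3.78 in TNF. The PBS values were tight, and TNF replicates 3 and 4 lay below replicates 1 and 2. The mean rose 2.65-fold, from 1.81 ± 0.196 to 4.77 ± 1.08 (SD, n = 4), with a log2 fold change of 1.40 (SE 0.20) and an adjusted p of 0.000265.

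Dusp5 (ENSMUSG00000034765, chr19:53517532-53530862, plus strand) encodes a nuclear enzyme selective for ERK. It was measured at 5.36, 6.62, 6.78 and 5.50 normalized CPM in PBS and at 12.2, 13.6, 16.6 and 7.65 in TNF. TNF replicate 4 came within 1 CPM of the highest PBS library. The log2 fold change was 1.06 (SE 0.21, adjusted p = 0.00205), or 2.09-fold, from 6.07 ± 0.738 to 12.5 ± 3.72 (SD, n = 4). The antisense gene Gm50394 overlaps Dusp5 over 555 bases and held at most 32 counts.

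Dusp2 (ENSMUSG00000027368, chr2:127177957-127180296, plus strand), a nuclear enzyme known mainly from leukocytes, was scarcely detected. It had 1 count in PBS replicate 1, 3 in TNF replicate 1, 5 in TNF replicate 3 and 0 in the other 5 libraries, each of which allows up to 3 counts. These 9 counts were too few for the test. Without the filter on low counts, edgeR gave an adjusted p of 0.141.

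Dusp6 (ENSMUSG00000019960, chr10:99086564-99103361, plus strand), the cytosolic phosphatase of ERK, was the member that fell. Its values were 22.7, 24.8, 24.3 and 28.4 normalized CPM in PBS and 14.6, 13.4, 12.9 and 16.3 in TNF. All TNF libraries lay below all PBS libraries, and the spread within each group was small. The mean dropped from 25.0 ± 2.40 to 14.3 ± 1.53 (SD, n = 4), a 1.76-fold decrease (log2 fold change -0.81, SE 0.12, adjusted p = 0.000333). Of all tested genes, 12.3% had a log2 fold change at or below that of Dusp6.

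Dusp7 (ENSMUSG00000053716, chr9:106245143-106252923, plus strand), the other cytosolic ERK phosphatase, moved the other way by a small amount. It stood at 5.36, 5.80, 5.84 and 5.91 normalized CPM in PBS and at 7.92, 8.38, 6.78 and 6.62 in TNF. The groups did not overlap, but the gap between them was under 1 CPM. The mean rose 1.30-fold, from 5.73 ± 0.247 to 7.42 ± 0.862 (SD, n = 4), with a log2 fold change of 0.38 (SE 0.13) and an adjusted p of 0.0369. This was the least stable call of the family. It was lost when any PBS library was left out (adjusted p of 0.161, 0.0751, 0.0740 and 0.0781 without replicates 1 to 4) and without TNF replicate 1 (0.142) or 2 (0.185), all in edgeR.

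The phosphatases that prefer JNK and p38 all rose. Dusp10 (ENSMUSG00000039384, chr1:183745499-183807842, plus strand) had the largest fold change of the 8 tested genes. Its values were 0.349, 0.409, 0.631 and 0.657 normalized CPM in PBS and 3.87, 4.36, 6.28 and 4.64 in TNF. It thus went from barely above detection, with 11 to 29 counts per PBS library, to 54 to 179 counts per TNF library. The mean moved from 0.511 ± 0.155 to 4.79 ± 1.05 (SD, n = 4), which is 9.28-fold (log2 fold change 3.21, SE 0.27, adjusted p = 6.82e-06). Its antisense neighbour 1700056E22Rik, overlapping over 808 bases, held at most 10 counts per library.

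Dusp8 (ENSMUSG00000037887, chr7:141633226-141649580, minus strand) was at 6.73, 4.91, 6.43 and 7.24 normalized CPM in PBS. In TNF it was at 24.0, 28.7, 37.5 and 15.2. Even TNF replicate 4, the lowest of its group, was well above the highest PBS library, at 7.24. The rise was 4.18-fold, from 6.33 ± 1.00 to 26.4 ± 9.29 (SD, n = 4), with a log2 fold change of 2.06 (SE 0.25) and an adjusted p of 7.53e-05.

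Dusp16 (ENSMUSG00000030203, chr6:134692431-134784241, minus strand) gave 529 to 2311 counts per library, the most of the family in all TNF libraries and in PBS replicates 1 and 3. It was at 28.3, 24.3, 29.6 and 27.0 normalized CPM in PBS and at 58.3, 80.02, 73.3 and 45.5 in TNF. Again TNF replicate 4 was the lowest TNF library without reaching the PBS range. The mean rose 2.36-fold, from 27.3 ± 2.26 to 64.3 ± 15.5 (SD, n = 4), with a log2 fold change of 1.24 (SE 0.17) and an adjusted p of 0.000199. The annotated antisense partners of Dusp6, Dusp8 and Dusp16 in the table (Gm34921, Gm32786 and Gm36328) held at most 2 counts in any library.

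The same libraries recurred at the ends of the groups. How often these libraries did so over all tested genes was not counted, and TNF replicate 4 stood apart over all genes on component 2. TNF replicate 4 was the lowest TNF library for 5 of the 8 tested genes (Dusp4, Dusp5, Dusp7, Dusp8 and Dusp16) and the highest for Dusp6. TNF replicate 3 was the highest for Dusp1, Dusp5, Dusp8 and Dusp10. PBS replicate 4 was the highest PBS library for 6 of the 8. That library also held the highest PBS values of the early response genes Fos (31.0 normalized CPM, against 9.54 to 16.2 in the other PBS libraries), Egr1 (38.3 against 13.2 to 17.4) and Jun (53.7 against 23.8 to 27.6), all of them named after their values were seen. Such genes, and Dusp1 with them, are known to respond to tissue dissociation, and the part of dissociation in these levels was not tested. Without PBS replicate 4, the log2 fold change of Dusp1 was 3.26 (edgeR, adjusted p = 8.24e-05).

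Leaving out TNF replicate 4 changed no call among the 8 genes. Scaling by library size alone, without TMM, did: it moved the median of all tested genes from 0.03 to -0.38. On that scale Dusp1 (2.65), Dusp8 (1.75) and Dusp10 (2.82) stayed higher and Dusp6 (-1.24) stayed lower, while the calls of Dusp4 (1.04), Dusp5 (0.76), Dusp7 (0.01) and Dusp16 (0.91) were lost in edgeR, with adjusted p of 0.0566, 0.162, 0.986 and 0.0889. None of the 8 log2 fold changes changed sign.

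**Figure D2:**
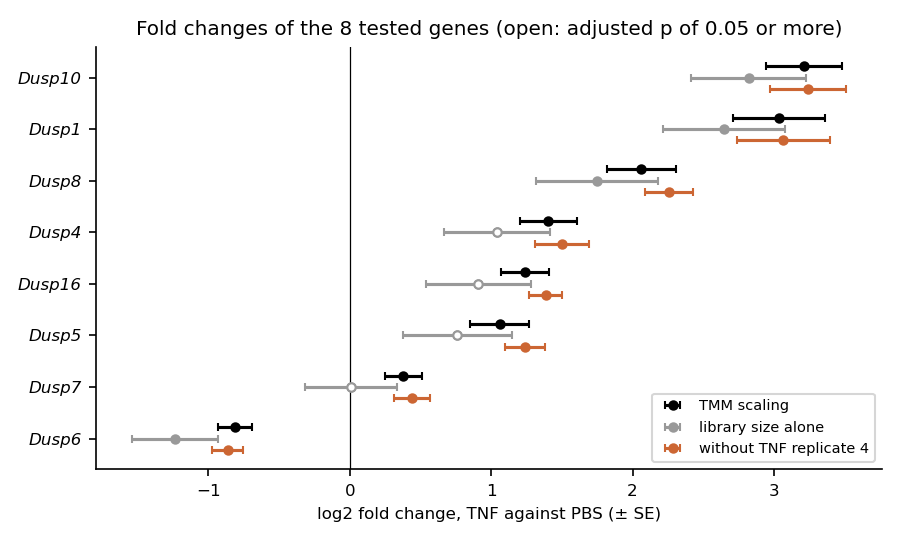
Log2 fold change (TNF against PBS, ± SE) of the 8 tested phosphatase genes with TMM scaling (black), with library size alone (grey) and without TNF replicate 4 (orange), where open points have an adjusted p of 0.05 or more. Dusp10 and Dusp1 are at the top with 3.21 and 3.04, Dusp6 is to the left of 0 at -0.81, and the open points are Dusp4, Dusp16, Dusp5 and Dusp7 with library size alone.

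A ratio of counts of 2 genes within a library does not depend on how libraries are scaled. Dusp16 counts were 1.25, 0.979, 1.22 and 0.951 times the Dusp6 counts in PBS and 4.00, 5.96, 5.71 and 2.78 times in TNF. Dusp6 gave the more counts in PBS replicates 2 and 4, and Dusp16 exceeded Dusp6 in every TNF library. The ratio of Dusp1 to Dusp6 counts was 0.0698 to 0.122 in PBS and 0.895 to 2.51 in TNF. Dusp7 against Dusp6, the pair of cytosolic enzymes, went from 0.208 to 0.240 in PBS to 0.405 to 0.624 in TNF. Ratios of Dusp4, Dusp5, Dusp8 and Dusp10 to Dusp6 also had no overlap between the groups. Against Dusp16, only Dusp1, Dusp8 and Dusp10 were set, and their ratios had no overlap either. Ratios of Dusp4, Dusp5 and Dusp7 to Dusp16 are not given, and how often other pairs of genes separate was not counted. The ratios given show unequal change between genes and were not tested.

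Levels of different genes were compared per kilobase of exon (normalized CPM divided by the length of all annotated exons). In PBS the order of mean levels was Dusp6 (7.38 ± 0.709 per kilobase), Dusp16 (3.09 ± 0.256), Dusp5 (2.45 ± 0.297), Dusp7 (1.40 ± 0.0603), Dusp8 (0.774 ± 0.123), Dusp1 (0.724 ± 0.247), Dusp4 (0.629 ± 0.0680), Dusp10 (0.0841 ± 0.0255) and Dusp2 (SD, n = 4). Neighbours in this order did not overlap, except Dusp8 with Dusp1 and Dusp1 with Dusp4. Dusp6 was therefore the most abundant of these RNAs in resting Paneth cells on this scale.

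After TNF the order on the same scale was Dusp16 (7.27 ± 1.75 per kilobase), Dusp1 (5.98 ± 2.59), Dusp5 (5.05 ± 1.499), Dusp6 (4.21 ± 0.451), Dusp8 (3.23 ± 1.14), Dusp7 (1.81 ± 0.210), Dusp4 (1.66 ± 0.375), Dusp10 (0.788 ± 0.172) and Dusp2 (SD, n = 4). Here the ranges of all neighbours overlapped, apart from Dusp4 with Dusp10 and Dusp10 with Dusp2. Further apart in the order, Dusp16 (at least 5.14) was above Dusp6 (at most 4.81), and Dusp16, Dusp1, Dusp5 and Dusp6 (at least 3.08) were above Dusp7 and Dusp4 (at most 2.05). Dusp1 moved from rank 6 to rank 2 and Dusp6 from rank 1 to rank 4. Dusp10, despite its fold change, was at rank 8 in both groups. With the length of the canonical transcript in place of all exons, the PBS order was the same, and in TNF Dusp8 moved to rank 3 and Dusp5 to rank 5.

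The make-up of the family's RNA changed with these levels. The 9 genes summed to 16.5 ± 1.03 normalized CPM per kilobase in PBS and 30.03 ± 5.57 in TNF (SD, n = 4). Dusp6 made up 44.6% ± 1.96 of the sum in PBS and 14.6% ± 4.15 in TNF, and both cytosolic enzymes together 53.1% ± 1.86 and 20.8% ± 5.05. The share of the nuclear enzymes went from 23.0% ± 1.47 to 42.0% ± 4.18, in which Dusp1 went from 4.33% ± 1.26 to 19.7% ± 6.04. The share of the JNK and p38 enzymes went from 23.9% ± 2.42 to 37.3% ± 4.27. These 3 group shares did not overlap between PBS and TNF libraries with either length, and they are given as a description with no test.

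**Figure D3:**
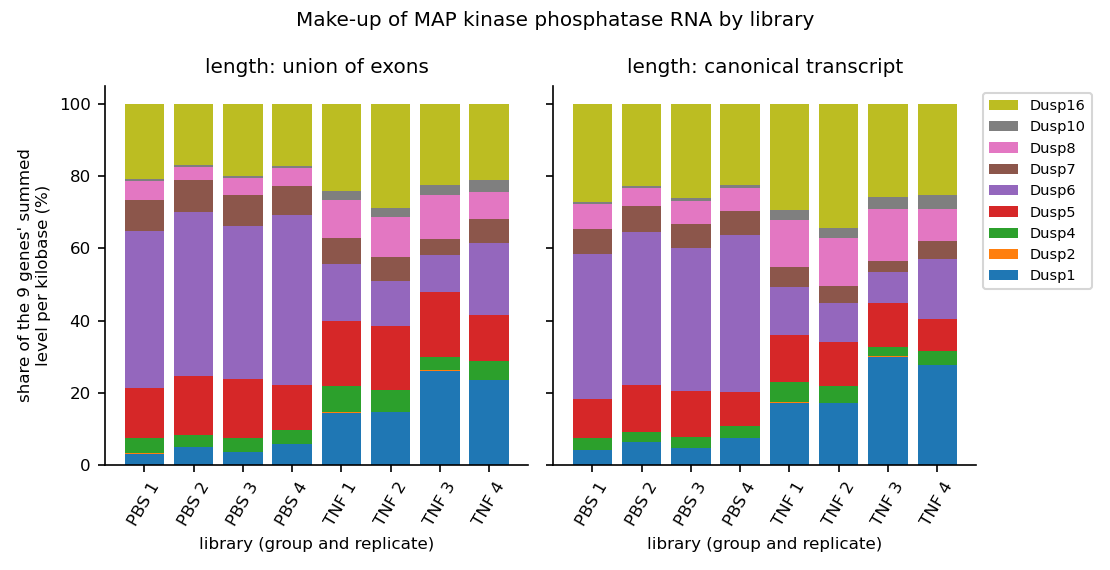
Share (%) of each of the 9 phosphatase genes in their summed level per kilobase, 1 bar per library, with the length of all annotated exons (left) or of the canonical transcript (right). Dusp6 fills 42.6% to 47.0% of each PBS bar and 10.2% to 19.8% of each TNF bar in the left panel, and Dusp1 grows from at most 5.85% to at least 14.4%.

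For each tested member, the genes with the most similar pattern were those with the smallest root mean square difference in log2 normalized CPM, centred on each gene's mean over the 8 libraries, among 8206 protein-coding genes. For Dusp1 they were Rhoc (0.36), Junb (0.37) and Runx1 (0.37). For Dusp10 they were Cish (0.18), Spindoc (0.19) and Runx1 (0.23), and for Dusp8 Gcc1 (0.10), Tnfrsf21 (0.13) and Midn (0.15). Dusp1 had the loosest matches of the 8 members. Those of Dusp4 were Ndrg3 (0.13), Wdr37 (0.15) and Nuak2 (0.16), those of Dusp5 Mapkapk2 (0.07), Coro1c (0.11) and Pip5k1a (0.12), and those of Dusp16 Txnrd1 (0.10), Pals1 (0.11) and Actb (0.11). Dusp6 was closest to Trit1 (0.07), Osr2 (0.08) and Zfp422 (0.08). Dusp7 was closest to Map2k1 (0.05), which encodes an ERK-activating kinase, and to Eogt (0.06) and Atad3a (0.06).

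The kinases on which these phosphatases act were described next, as lists of the pathway. Over all tested genes, 23.3% were called higher and 19.6% lower, and the counts of each list here and below stand beside these shares. No list was tested as a set. Of 14 MAP kinase genes, 12 were tested, 4 rose and 3 fell, with a median log2 fold change of -0.01. Mapk11 (p38 beta) was at 0.0394 to 0.349 normalized CPM in PBS and 2.24 to 3.43 in TNF. It was among the called genes, but it passed the filter on low counts only through TNF, so its test is not used here. Mapk14 (p38 alpha) fell, from 27.9 to 30.9 in PBS to 16.2 to 18.4 in TNF (edgeR, log2 fold change -0.74, SE 0.10, adjusted p = 0.000183). Mapk11 counts were 0.124 to 0.210 of the Mapk14 counts in TNF. Mapk4, an atypical MAP kinase, rose by a log2 fold change of 2.99 (edgeR adjusted p = 2.44e-06). The number of MAP kinases that fell was 2 when PBS replicate 1, 2 or 3 or TNF replicate 1, 2 or 3 was left out. Of the JNK genes, Mapk8 rose (0.74, adjusted p = 0.00453), Mapk9 was not called (-0.12) and Mapk10 had 0 counts in every library. These JNK genes were chosen after their values were seen.

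Upstream of them, 7 of 7 MAP kinase kinases were tested, 3 rose and 1 fell (median -0.06). Map2k3 and Map2k6 both activate p38, and they moved apart. Map2k3 rose from 22.1 to 25.5 normalized CPM in PBS to 58.9 to 100.1 in TNF (log2 fold change 1.75, SE 0.16, edgeR adjusted p = 1.34e-05). Map2k6 fell from 22.5 to 30.9 in PBS to 6.95 to 11.4 in TNF (log2 fold change -1.58, SE 0.18, edgeR adjusted p = 4.60e-05). Within a library the ratio of Map2k3 to Map2k6 counts was 0.716 to 1.11 in PBS and 5.16 to 14.4 in TNF. Map2k1 rose slightly (0.39, edgeR adjusted p = 0.0115), and its call was lost without PBS replicate 1 (adjusted p = 0.0846), without TNF replicate 1 (0.0769) or 2 (0.106), with library size alone (0.965) and with no filter on low counts (0.101). In each of those 3 fits without a library, 1 MAP kinase kinase was higher instead of 3.

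Of 21 MAP kinase kinase kinases, 20 were tested, 7 rose and 4 fell (median 0.14). Map3k6 rose (log2 fold change 3.20, edgeR adjusted p = 1.51e-06), while Map3k13 (-2.18, adjusted p = 0.000205) and Map3k21 (-2.06, adjusted p = 1.15e-05) fell. The number that rose was 4 without PBS replicate 2, PBS replicate 3 or TNF replicate 2. Downstream, 9 of 11 kinases activated by MAP kinases were tested, 3 rose and 2 fell (median 0.10). Mapkapk3, a substrate kinase of p38, rose (log2 fold change 2.11, edgeR adjusted p = 3.18e-07). Mknk2, a kinase of the translation factor eIF4E, fell (-1.20, edgeR adjusted p = 5.01e-05). Rps6ka5, a nuclear kinase downstream of ERK and p38, was at 4.53 to 7.24 normalized CPM in PBS and 0.658 to 0.959 in TNF. It was called lower, but it passed the filter on low counts only through PBS, so its test is not used here.

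The Sprouty and Spred proteins restrain the ERK pathway upstream, where the phosphatases do so at the kinase. Of the 7 genes listed, 6 were in the table, 5 were tested, 4 rose and 1 (Spry2, named after its value was seen, 0.41) was not called (median 0.87). Spry4 was at 0.0268 to 0.0789 normalized CPM in PBS and 0.945 to 1.97 in TNF, and was called, but it passed the filter on low counts only through TNF, and no fold change is given against PBS values so close to 0. Spred2 (log2 fold change 1.14, edgeR adjusted p = 0.000835) and Spry1 (0.87, adjusted p = 0.00209) also rose, and their calls were lost with library size alone (0.83 and 0.52). The 11 transcripts known to respond to ERK were all tested, and 6 rose and 2 fell (median 0.66). The leading 3 were Ier3 (log2 fold change 3.91, edgeR adjusted p = 1.03e-07), the ETS factor Etv4 (2.90, adjusted p = 2.27e-06) and the ephrin receptor Epha2 (3.53, adjusted p = 1.10e-05). The number that fell was 1 without PBS replicate 1, PBS replicate 4 or TNF replicate 1. Dusp6, itself a known ERK-responsive gene, fell, as did 2 of these 11, while 6 rose and 3 were not called. Over all tested genes, 23.3% were called higher and 19.6% lower, and the difference between Dusp6 and the list was not tested.

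**Figure D4:**
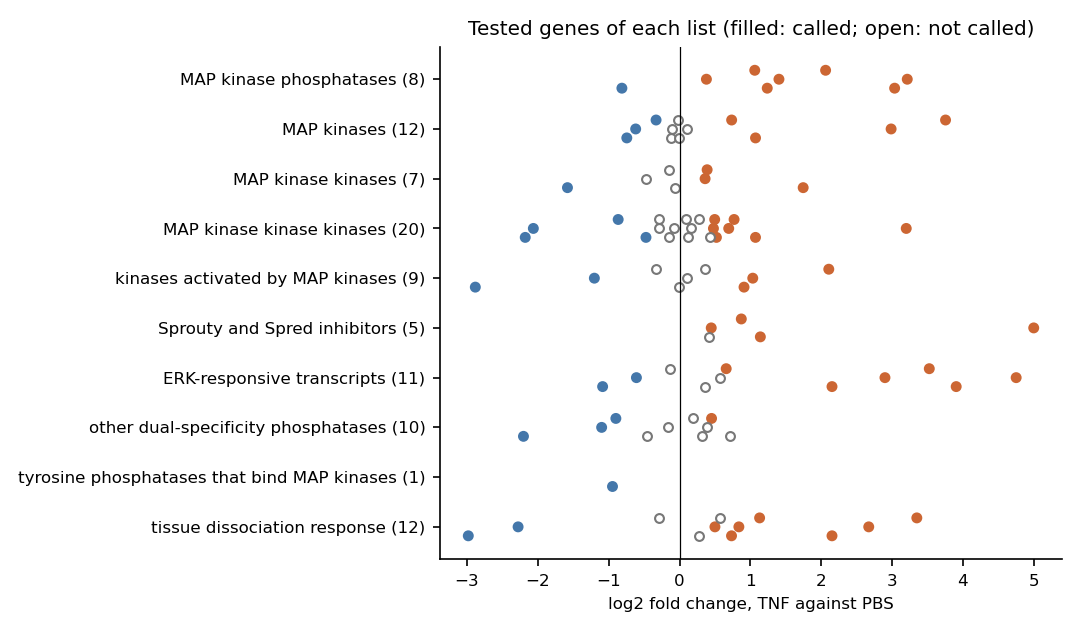
Log2 fold change (TNF against PBS) of each tested gene in the phosphatase family and in 9 pathway lists, with filled points for genes called higher (orange) or lower (blue) and open points for genes not called; the number tested is in brackets, and Fos and Egr1 are in 2 lists. All 8 phosphatase genes are called, 7 to the right of 0, whereas the MAP kinases have 4 called higher, 3 lower and 5 not called. Over all tested genes, 23.3% were called higher and 19.6% lower.

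Other dual-specificity phosphatases, which mostly lack the MAP kinase binding domain, gave a mixed picture. Of 19 listed, 18 were in the table and 10 were tested. Dusp11, a phosphatase of RNA, rose (log2 fold change 0.45, edgeR adjusted p = 0.00970), and 3 fell, led by Dusp18 (-2.20, adjusted p = 1.49e-05) and Dusp23 (-0.90, adjusted p = 0.000867). The list's median was 0.02. Without TNF replicate 4, 4 of 11 rose and 5 fell. The 4 include Dusp9, described below, which passed the filter in that fit only through TNF. The call of Dusp11 was lost without PBS replicate 1 (edgeR adjusted p = 0.0627), without TNF replicate 2 (0.0515), with library size alone (0.895) and with no filter on low counts (0.0635). Of the tyrosine phosphatases that bind MAP kinases, only Ptprr had enough counts of the 3, and it fell (-0.95, edgeR adjusted p = 0.00497).

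Dusp9, a MAP kinase phosphatase close to Dusp6 and Dusp7 that was not among the 9 genes, was chosen after its values were seen. It was at 0.0536, 0.149, 0.0789 and 0.0906 normalized CPM in PBS and at 0.746, 0.831, 0.772 and 0.0859 in TNF. The filter on low counts removed it in the fit of all 8 libraries, and TNF replicate 4 lay in the PBS range. It is near 0 in PBS and can pass that filter only through the TNF libraries where it is high, so no fold change or test is given.

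The list of genes known to respond to tissue dissociation held 13 genes, of which 12 were tested, 7 rose and 2 fell (median 0.66). Junb (log2 fold change 3.35, edgeR adjusted p = 3.26e-07) and Atf3 (2.67, adjusted p = 1.03e-05) rose, whereas Nr4a1 fell (-2.28, adjusted p = 3.38e-05). Summed over the list, PBS libraries held 275.5 to 377.1 normalized CPM and TNF libraries 662.3 to 926.4. Of the TNF sums, 241.2 to 314.3 came from Junb, against 21.6 to 33.2 in PBS. The list's part in the rise of the phosphatases was not tested. With library size alone, 3 of the 12 genes were higher and 2 lower. On that scale the higher and lower counts were 2 and 2 for the MAP kinases, 1 and 1 for the MAP kinase kinases, 1 and 3 for the kinases above those, 1 and 2 for the kinases activated by MAP kinases, 5 and 1 for the ERK-responsive transcripts, and 0 and 4 for the other dual-specificity phosphatases. For the Sprouty and Spred genes, 1 of 5 was higher on that scale.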

How the data were processed

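Paneth cell RNA of 4 PBS and 4 TNF libraries was compared, each library being 1 replicate as numbered in its label. Per the labels, the library kit was TruSeq Stranded mRNA. The authors deposited raw counts per Ensembl gene ID, with no normalization. The submitters' processing notes name FastQC 0.12, STAR 2.7.10a, DESeq2 and build mm39. The study describes alignment to GRCm39 with a GENCODE annotation and another STAR version, and separate quantification of reads with Salmon, neither of which is stated to be the source of this table. Its counter, annotation release, use of strand and treatment of multi-mapped reads were not given in the sources used here. The notes do not say what DESeq2 was used for.

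Symbols, coordinates, exon lengths and sequences came from GENCODE release M39 on GRCm39 (54749 of 55414 IDs matched and 665 did not). RefSeq promoter sequences were not used, since their table is on another build. Promoters were taken at the canonical transcript's start.

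All genes were tested together in R 4.3.3 with edgeR 4.0.16 (filterByExpr, TMM, quasi-likelihood F test, no covariate) and Benjamini-Hochberg adjustment over all tested genes, with adjusted p under 0.05 called. The SE of a log2 fold change (TNF over PBS) came from its F statistic. Normalized CPM were edgeR's CPM of the TMM-scaled library size. Depth was 23824717 to 32576077 counts, and the limit of 3 counts for a count of 0 covers counting error only. Duplicate libraries were looked for within groups by chi-square per degree of freedom, which was at least 8.77.

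The 9 genes and all lists were chosen with earlier results of these data known. By rule, the genes named were the 9 members, the called genes with the 3 smallest p of each pathway list, and the 3 genes most like each member (mean of at least 5 normalized CPM, prior count 1). Fos, Egr1, Jun, Spry2, Mapk8, Mapk9, Mapk10 and Dusp9 were named after their values were seen. Counts of called genes in the lists include genes that passed the filter only through 1 group, such as Mapk11 and Spry4 (TNF) and Rps6ka5 (PBS). Marker lists covered 9 cell types. Not described in the results were goblet cells (2 of 7 higher, 2 lower), enterocytes (1 of 8 lower), cycling cells (1 of 6 lower) and tuft cells (3 of 3 not called), while 1 of 8 Paneth cell, 1 of 2 tested leukocyte and 3 of 4 tested enteroendocrine markers were higher. Such counts moved when 1 library was left out. Goblet markers higher were 1 when any library but TNF replicate 4 was left out. Without TNF replicate 4, 1 enterocyte marker was higher and 3 were lower.

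Alternatives were library size alone, RLE scaling, TMM without alpha-defensin genes, DESeq2 1.42.0, limma-voom (limma 3.58.1), no filter beyond 1 count, a minimum of 1 CPM in 4 or more libraries, the replicate number as a block, adjusted p under 0.01, canonical transcript length, and each library left out. The fit procedure was tested on simulated counts.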

Additional observations from a re-analysis of the deposited data

Results flagged for a closer look

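A single library lay far from the other 3 of its group for 7 of 70 gene and group combinations, by the size of the gap to the nearest value over the group's range (Dixon's criterion for 4 samples). Chance alone gives about 1 in 20 such cases. Among the 9 phosphatase genes this concerned Dusp2, whose 1 count in PBS replicate 1 came to 0.0268 normalized CPM while the rest of that group had 0. With the rest at 0, any count gives the largest possible gap. This flag was therefore fixed in advance, and the rate of 1 in 20 does not apply to it. Dusp9 was at 0.0859 in TNF replicate 4, against 0.746 to 0.831 in the other TNF libraries. Dusp18 was at 0.737 in TNF replicate 3, against 1.12 to 1.18. In PBS replicate 4, Epha2 was at 1.63 (others 2.04 to 2.12) and Map3k13 at 42.9 (others 28.1 to 30.2). Map3k13 was also apart in TNF replicate 4, at 13.6 against 5.09 to 5.79. Rps6ka5 was at 0.959 in TNF replicate 1, against 0.658 to 0.687.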

How the results depend on the processing

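With library size alone in place of TMM scaling, 3182 genes were called instead of 5746 and 3 of the 8 tested phosphatase genes were higher instead of 7. That scale moves the median of all tested genes, as log2 fold change, from 0.03 to -0.38 and the split of all calls from 3121 higher and 2625 lower to 757 and 2425. Any further cause was not tested. Leaving out 1 library at a time gave 4757 to 6923 called genes, 6 to 7 members higher and 1 lower. Leaving out PBS replicate 1 and TNF replicate 4 together, chosen after seeing the data, gave 6115 called genes, with 7 members higher and 1 lower. With the replicate number as a block, 5087 genes were called and 6 members were higher (Dusp7 0.37, edgeR adjusted p = 0.0824). Deviations of libraries with the same number correlated at 0.0229, 0.0663, -0.144 and -0.126, and not every library correlated best with its own number, so the numbers were not taken as pairs. No log2 fold change of the 8 genes reversed under any of the 18 settings. Dusp1, Dusp6, Dusp8 and Dusp10 kept their call under all 18, and Dusp7 lost it under 10, also with no filter on low counts (0.34, edgeR adjusted p = 0.170) and at the stricter threshold. For Dusp1 the range was 2.65 to 3.26 and for Dusp10 2.82 to 3.36. Depth limits Dusp2, with 9 counts in all, and the PBS values of Dusp10. The groups hold 4 libraries each, and whether strand was used in counting is not known.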
